A study of Arabidopsis thaliana with 4 samples.

Results

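The 37 genes described here encode the cytokinin pathway of Arabidopsis thaliana from hormone synthesis to the transcription factors that carry the response. They are 6 isopentenyltransferase genes (IPT), 2 CYP735A genes, 7 LOG genes, 7 cytokinin oxidase genes (CKX), 3 receptor genes (AHK), 5 phosphotransfer genes (AHP) and 7 type-B response regulator genes (ARR). They were taken by locus identifier from 32833 genes of a table of RNA-seq read counts. The samples were callus that forms on hypocotyl explants on callus induction medium. They came from the wox5-1 wox7-1 double mutant and from Col-0 wild type, with 2 libraries of each at the stage labelled as 6 days on the medium. WOX5 and WOX7 are related homeobox transcription factor genes.

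Explants of about 1 cm from seedlings grown for 9 days in darkness were kept at 22 °C in continuous light. The medium held 2% sucrose, 11 µM 2,4-dichlorophenoxyacetic acid, a synthetic auxin, and 0.2 µM kinetin, a synthetic cytokinin. Both genotypes therefore received cytokinin from outside. The culture lasted 5 to 6 days, and about 100 calli were taken for RNA. No label gives separate cultures for libraries of one genotype. The p-values therefore cover only how much these libraries vary, and that variation may be technical.

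Cytokinins are adenine derivatives that promote cell division and, together with auxin, set whether cultured plant tissue forms callus, shoots or roots. IPT enzymes attach the isoprenoid side chain, CYP735A enzymes hydroxylate it to give the zeatin type, LOG enzymes release the active base from its nucleotide, and CKX enzymes cleave the side chain and so destroy the hormone. Receptor kinases of the AHK family bind the hormone and pass phosphate through AHP proteins to type-B response regulators, DNA-binding factors that switch on target genes. Among those targets are the type-A response regulators, which dampen the signal.

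The libraries held 35078420 and 40008661 reads in the mutant and 30041268 and 35975440 reads in the wild type. WOX5 had 9 and 33 reads in the mutant libraries, against 4378 and 5268 in the wild-type libraries. WOX7 had 790 and 864 reads in the mutant and 449 and 473 in the wild type. It rose in the mutant (edgeR, log2 fold change 0.68, SE 0.11, adjusted p = 0.0335). These values leave the WOX7 allele unchecked because reads were summed along the gene. All 7 markers of callus founder and root-like cells had reads in all 4 libraries, with a summed level of 895 to 1006 CPM (read counts scaled to library size) in the mutant and 992 to 1070 CPM in the wild type. Of these, LBD18 rose, PLT2 and SCR fell, and LBD29 had 6 and 130 reads in the mutant and 4 and 44 in the wild type. The 4 leaf mesophyll markers summed to 14.7 to 31.8 CPM in the mutant and 12.2 to 18.6 CPM in the wild type, with LHCB1.1 and LHCB2.1 at 0 to 3 reads, RBCS1A at 19 to 115 reads and PSBO1 at 421 to 1005 reads per library.

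Of the 37 genes, 27 passed the filter on low counts and 10 did not. The changes were spread over the pathway and went both ways. AHP2, CKX3 and ARR10 rose and LOG3 and AHK2 fell in the mutant (edgeR quasi-likelihood test, adjusted p below 0.05 over all tested genes). These 5 genes are 18.5% of the 27 tested, where 11.9% of all 18716 tested genes were called, 6.06% raised and 5.81% lowered. The median log2 fold change of the 27 was 0.11 (median size 0.46), beside -0.001 (median size 0.26) over all tested genes. At an unadjusted p below 0.05 there were 12 of the 27, where 33.4% of all tested genes were, and the genotypes did not overlap for 19 of the 27, where they did not for 64.4% of all. DESeq2 called 10 of the 27, where it called 31.8% of all tested genes. The 27 genes include only those with enough reads and are not the whole pathway. In bulk RNA a change in the number of cells of a type and a change in RNA per cell cannot be told apart. No gene of the whole table passed in edgeR when either wild-type library was left out, where 3428 and 3346 genes had an unadjusted p below 0.05. DESeq2 on the same 3 libraries called 1314 and 1167 genes, and AHP2 and CKX3 were the 2 of the 37 genes among them. AHP2 and CKX3 also passed in DESeq2 without either mutant library. AHK2 passed in none of the 4 DESeq2 runs on 3 libraries (adjusted p = 0.0552 to 0.342), and LOG3 and ARR10 each passed only without mutant replicate 1.

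**Figure D1:**
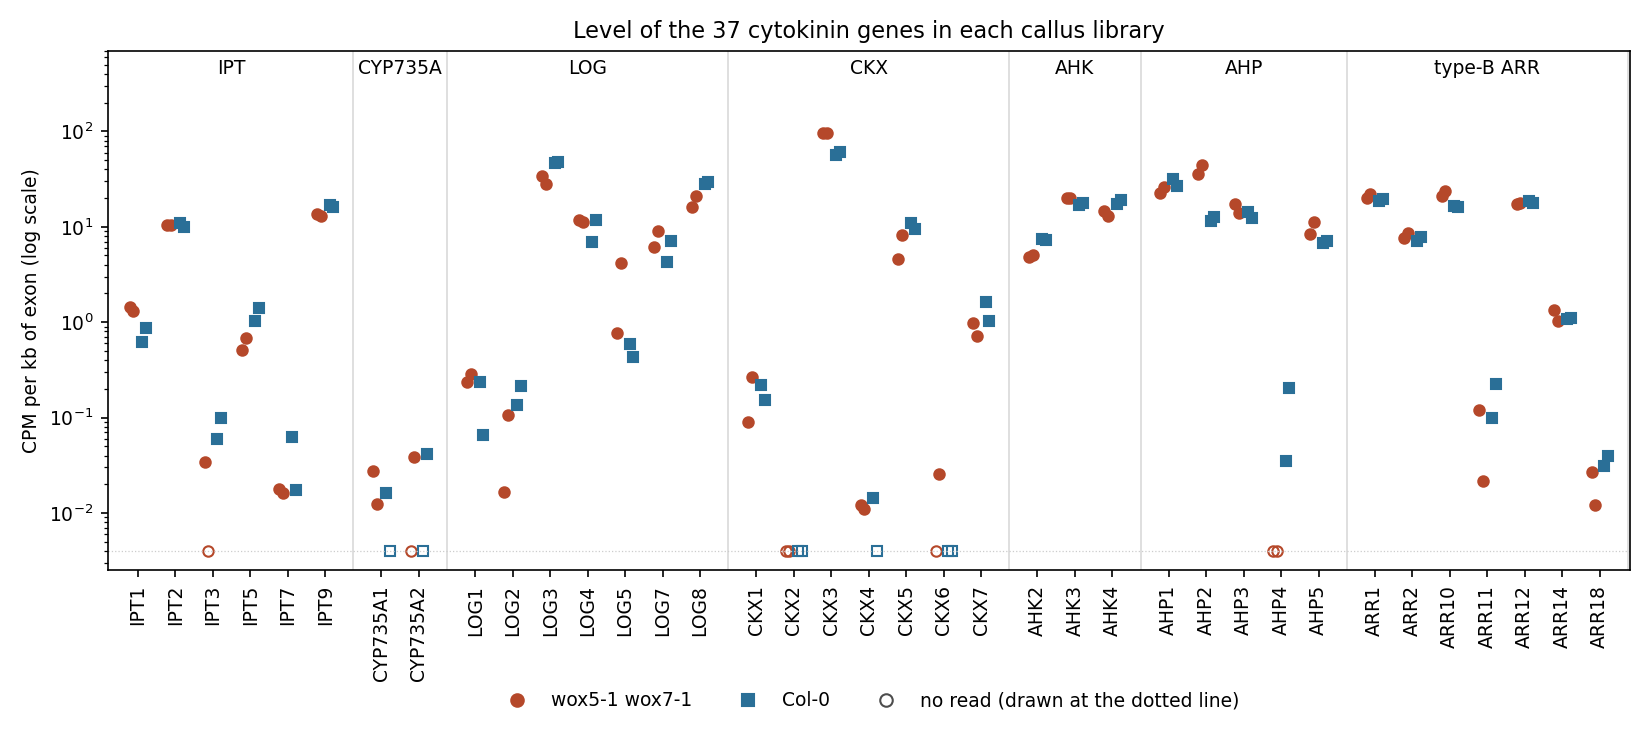
Level of each of the 37 genes in each library, in CPM per kilobase of exon on a log axis, with mutant libraries as circles on the left and wild-type libraries as squares on the right of each gene. CKX3 is the highest gene in all 4 libraries, and AHP2 is the gene whose mutant points lie well above its wild-type points at a high level.

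**Figure D2:**
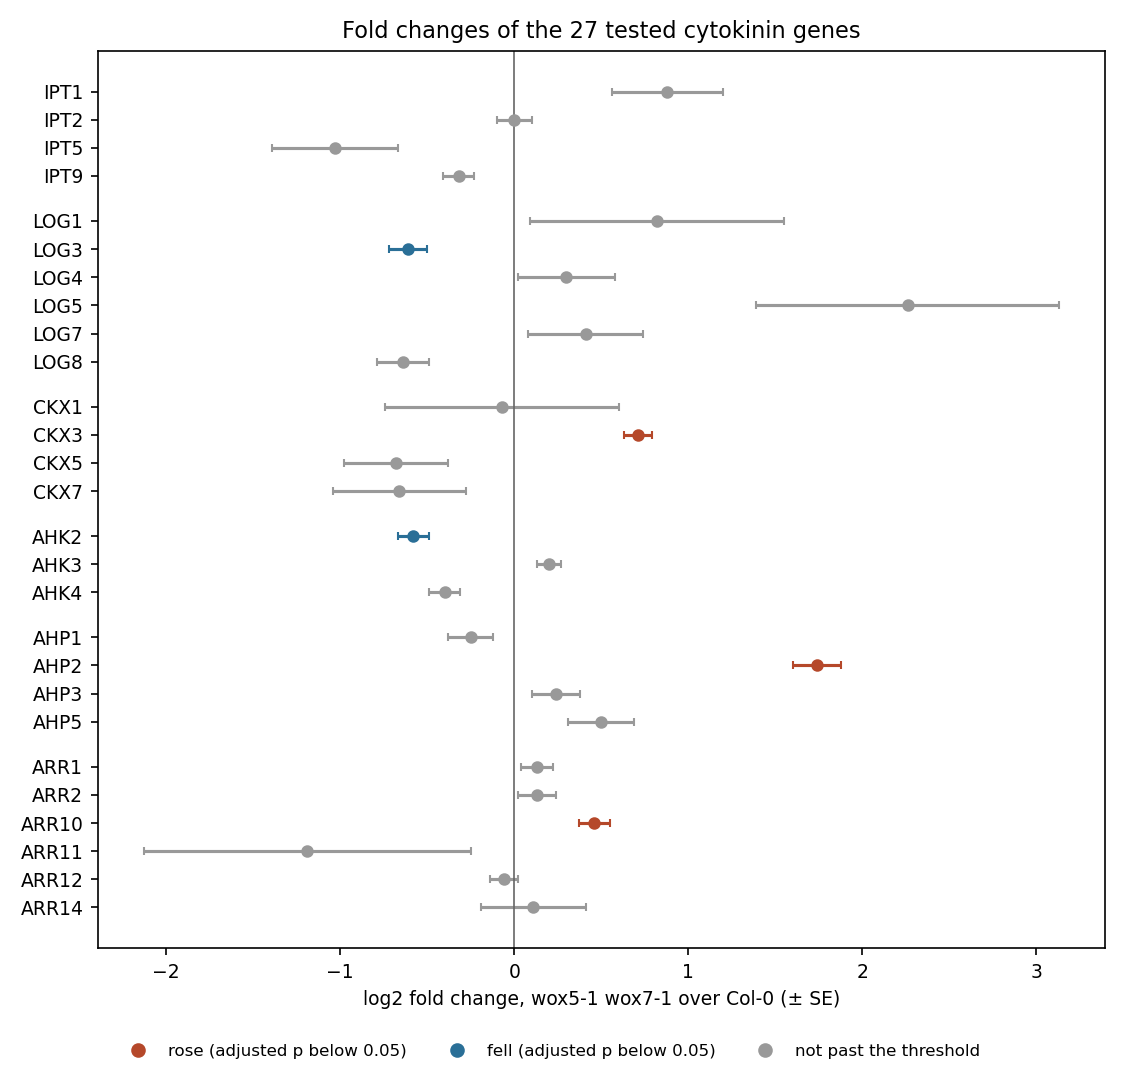
Log2 fold changes of the 27 tested genes, mutant over wild type, with SE bars. AHP2 (1.74), CKX3 (0.71) and ARR10 (0.46) rose, LOG3 (-0.61) and AHK2 (-0.58) fell, and grey genes did not pass the threshold.

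No IPT gene was called by edgeR. Of the 4 tested, 3 had an unadjusted p below 0.05 in edgeR, where 33.4% of all tested genes did. DESeq2 called IPT9 as lower (0.0154) but not when genes with few reads were kept (0.137). IPT9 and IPT2, the tRNA-type isopentenyltransferases, supplied nearly all IPT transcript, at 13.2 and 10.5 CPM per kilobase in the mutant and 16.5 and 10.5 in the wild type. IPT9 (AT5G20040) had 25.4 and 23.8 CPM in the mutant libraries, against 31.2 and 30.1 CPM in the wild-type libraries. Both mutant values lay below both wild-type values (log2 fold change -0.32, SE 0.09, adjusted p = 0.0908), as for 33% of all tested genes.

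The genes that make free cytokinin from ATP or ADP were low. IPT5 (AT5G19040), known from lateral root primordia and the root cap, had 0.934 and 1.26 CPM in the mutant and 1.87 and 2.60 CPM in the wild type (log2 fold change -1.03, SE 0.36, adjusted p = 0.130). IPT1 (AT1G68460) had 2.49 and 2.26 CPM in the mutant and 1.09 and 1.49 CPM in the wild type (0.88, SE 0.32, adjusted p = 0.142). The genotypes did not overlap for either gene, as for 64.4% of all tested genes, and the 2 genes lay on opposite sides. IPT3 (AT3G63110), whose expression answers to nitrate, had 2 and 0 reads in the mutant and 3 and 6 in the wild type, and IPT7 (AT3G23630) had 1 to 3 reads per library. IPT2 (AT2G27760) had 17.5 and 17.3 CPM in the mutant and 18.2 and 16.7 CPM in the wild type, with overlapping values and an adjusted p of 0.986.

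The hydroxylation step was hardly detectable. CYP735A1 (AT5G38450) had 2 and 1 reads in the mutant and 1 and 0 in the wild type. CYP735A2 (AT1G67110) had 0 and 3 reads in the mutant and 0 and 3 in the wild type. At these depths a count of 0 allows up to 3 reads, which is 0.0770 to 0.0849 CPM in the mutant libraries and 0.0830 to 0.0986 CPM in the wild-type libraries. No difference in this step was detectable at this depth.

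In the activation step, the leading gene LOG3 fell. LOG3 (AT2G37210) had 42.1 and 35.2 CPM in the mutant and 58.4 and 59.9 CPM in the wild type (log2 fold change -0.61, SE 0.11, adjusted p = 0.0418). LOG8 (AT5G11950), the second gene of the step in level, had 30.5 and 40.1 CPM in the mutant and 54.1 and 56.1 CPM in the wild type (-0.64, SE 0.15, adjusted p = 0.0628). Both genes had mutant values below all wild-type values, as did 33% of all tested genes. LOG8 missed the threshold in edgeR and passed in DESeq2 (0.000312). The LOG3 call was lost without mutant replicate 2 (adjusted p = 0.0609), and LOG8 passed without that library (0.0271).

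Of the other LOG genes, 4 passed the filter on low counts and none was called by edgeR. LOG4 (AT3G53450), which acts with LOG3 in the vascular tissue of the root, had 10.4 and 9.98 CPM in the mutant and 6.15 and 10.4 CPM in the wild type. LOG7 (AT5G06300) had 7.75 and 11.5 CPM in the mutant and 5.46 and 8.99 CPM in the wild type. Both genes overlapped between genotypes. LOG5 (AT4G35190) had 45 and 269 reads in the mutant and 30 and 26 in the wild type, a log2 fold change of 2.26 (SE 0.87) at an adjusted p of 0.156. DESeq2 called it (adjusted p = 0.0195). The value rests on mutant replicate 2 and was 0.58 without that library. LOG1 (AT2G28305) had 14 and 19 reads in the mutant and 12 and 4 in the wild type. LOG2 (AT2G35990), which was not tested, had 1 and 7 reads in the mutant and 7 and 13 in the wild type. Summed over its 7 genes, the step stood at 92.5 and 104 CPM in the mutant and 126 and 137 CPM in the wild type, a ratio of 0.750.

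In the degradation step, CKX3 rose and no other CKX gene passed the threshold. CKX3 (AT5G56970) had 175 and 176 CPM in the mutant libraries, against 102 and 112 CPM in the wild-type libraries, from 6177 and 6853 reads against 3100 and 4037. The log2 fold change was 0.71 (SE 0.08, adjusted p = 0.0211), a 1.64-fold rise. By level per kilobase of exon CKX3 ranked 1031 in the mutant and 1881 in the wild type among 23344 genes with reads and a gene model. CKX3 and CKX5 are known for limiting the size of the shoot meristem. CKX3 lies on the minus strand of chromosome 5 from 23044839 to 23048292 in TAIR10.1, with no annotated gene overlapping it.

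The 250 bases before the annotated start of CKX3, at chr5:23048293-23048542 of RefSeq's TAIR10.1, are shown for the gene that carries most CKX transcript. The capitals mark AATCT, the reverse complement of AGATT, the core that type-B response regulators bind in vitro.
CKX3: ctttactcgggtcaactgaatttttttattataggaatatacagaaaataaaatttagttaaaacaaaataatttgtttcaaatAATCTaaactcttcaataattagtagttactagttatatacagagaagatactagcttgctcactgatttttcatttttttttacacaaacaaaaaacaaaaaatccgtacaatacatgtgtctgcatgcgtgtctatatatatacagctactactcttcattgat
With both strands searched, AGATT occurred in this window for 21 of the 37 genes (56.8%) and for 63.7% of 27443 protein-coding genes. TTAATGG, a motif bound by the related homeodomain protein WUSCHEL, occurred for 2 of the 37, LOG8 and CKX7, and for 6.99% of all. These matches describe letters only and are not binding sites.

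CKX5 (AT1G75450) had 12.5 and 22.4 CPM in the mutant and 30.2 and 25.7 CPM in the wild type (log2 fold change -0.68, SE 0.30, adjusted p = 0.200). CKX5 overlaps 3 annotated genes, and whether reads were counted by strand is not given, so some of its reads may be theirs. Without mutant replicate 2, which was the closer of the mutant libraries to the wild type, the log2 fold change of CKX5 was -1.16 (adjusted p = 0.0395), and without mutant replicate 1 it was -0.32 (0.209). CKX7 (AT5G21482), whose enzyme is cytosolic, had 71 and 57 reads in the mutant and 103 and 76 reads in the wild type (log2 fold change -0.66, SE 0.38, adjusted p = 0.292). CKX1 (AT2G41510) had 8 to 26 reads per library and overlapped between genotypes. CKX2 (AT2G19500) had no read in any library, and CKX4 (AT4G29740) and CKX6 (AT3G63440) had 0 to 2 reads. A gene on the opposite strand covers 1836 of the 2007 exonic bases of CKX6, so its count is uncertain.

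The share of CKX3 in the summed CKX level per kilobase was 94.4% and 91.3% in the mutant and 81.3% and 85.3% in the wild type. The 7 CKX genes summed to 190 and 200 CPM in the mutant and 136 and 140 CPM in the wild type, a ratio of 1.41. Without CKX3 the other 6 summed to 14.7 and 24.7 CPM in the mutant and 34.1 and 28.2 CPM in the wild type, a ratio of 0.632. The higher CKX sum in the mutant was therefore that of CKX3 alone.

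Among the receptors, AHK2 fell. AHK2 (AT5G35750) had 21.3 and 22.6 CPM in the mutant and 32.9 and 32.6 CPM in the wild type (log2 fold change -0.58, SE 0.09, adjusted p = 0.0319). AHK4 (AT2G01830), also named WOL or CRE1 and the receptor of root vascular tissue, had 66.2 and 59.4 CPM in the mutant and 79.2 and 86.7 CPM in the wild type (-0.40, SE 0.09, adjusted p = 0.0632). AHK3 (AT1G27320) had 90.4 and 90.6 CPM in the mutant and 76.9 and 80.1 CPM in the wild type (0.20, SE 0.07, adjusted p = 0.118). None of the 3 overlapped between genotypes, with AHK3 higher and the others lower in the mutant. Of all tested genes, 64.4% did not overlap. With DESeq2 all 3 passed (AHK3 0.00938, AHK4 0.000594), where 31.8% of all tested genes did. AHK3 did not pass in DESeq2 when genes with few reads were kept (0.137).

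AHK3 led the receptors in the mutant, while AHK3 and AHK4 were close to each other in the wild type. Per kilobase, AHK3 made up 51.0% and 52.6% of receptor transcript in the mutant, against 40.9% and 40.3% in the wild type. AHK4 made up 36.8% and 34.0% in the mutant and 41.5% and 43.1% in the wild type. AHK2 was the lowest in all 4 libraries, at 12.2% and 13.3% in the mutant and 17.7% and 16.6% in the wild type. The sum of the 3 genes was 178 and 173 CPM in the mutant and 189 and 199.5 CPM in the wild type.

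The phosphotransfer gene AHP2 had the largest change past the threshold among the 37 genes. AHP2 (AT3G29350) had 33.7 and 41.0 CPM in the mutant libraries, against 10.6 and 11.7 CPM in the wild-type libraries, from 1191 and 1600 reads against 323 and 423. The rise was 3.35-fold (log2 fold change 1.74, SE 0.14, adjusted p = 0.0156), with adjusted p-values of 0.124 and 0.117 in edgeR without each wild-type library and at most 3.09e-06 in DESeq2 whichever library was left out. It lies on the minus strand of chromosome 3 from 11264126 to 11265562, with no overlapping gene. Its upstream 250 bases, at chr3:11265563-11265812 of TAIR10.1, held neither AGATT nor TTAATGG on either strand, which says only that these letters are not in the window.
AHP2: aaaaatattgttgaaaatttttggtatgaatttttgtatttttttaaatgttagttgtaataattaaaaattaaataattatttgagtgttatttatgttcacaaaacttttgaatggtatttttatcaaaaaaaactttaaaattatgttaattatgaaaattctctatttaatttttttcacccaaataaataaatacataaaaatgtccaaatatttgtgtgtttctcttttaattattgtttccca

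AHP1 (AT3G21510), AHP3 and AHP5 did not pass. AHP1 had 32.5 and 37.3 CPM in the mutant and 45.2 and 38.0 CPM in the wild type (log2 fold change -0.25, SE 0.13, adjusted p = 0.249). AHP5 (AT1G03430) had 11.1 and 15.0 CPM in the mutant and 9.01 and 9.43 CPM in the wild type (0.50, SE 0.19, adjusted p = 0.147). AHP3 (AT5G39340) had 22.6 and 18.6 CPM in the mutant and 18.7 and 16.3 CPM in the wild type, with overlapping values. AHP4 (AT3G16360) had no read in either mutant library and 1 and 7 reads in the wild type, a count too small for the test.

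Within the AHP step, AHP2 was the leading gene in the mutant and AHP1 in the wild type. AHP2 made up 42.9% and 46.2% of AHP transcript per kilobase in the mutant, against 17.8% and 21.4% in the wild type. AHP1 made up 26.9% and 27.3% in the mutant and 49.3% and 45.2% in the wild type. The 5 genes summed to 99.9 and 112 CPM in the mutant and 83.6 and 75.6 CPM in the wild type. Without AHP2 the sums were 66.2 and 70.9 CPM in the mutant and 72.9 and 63.9 CPM in the wild type, which overlap.

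**Figure D3:**
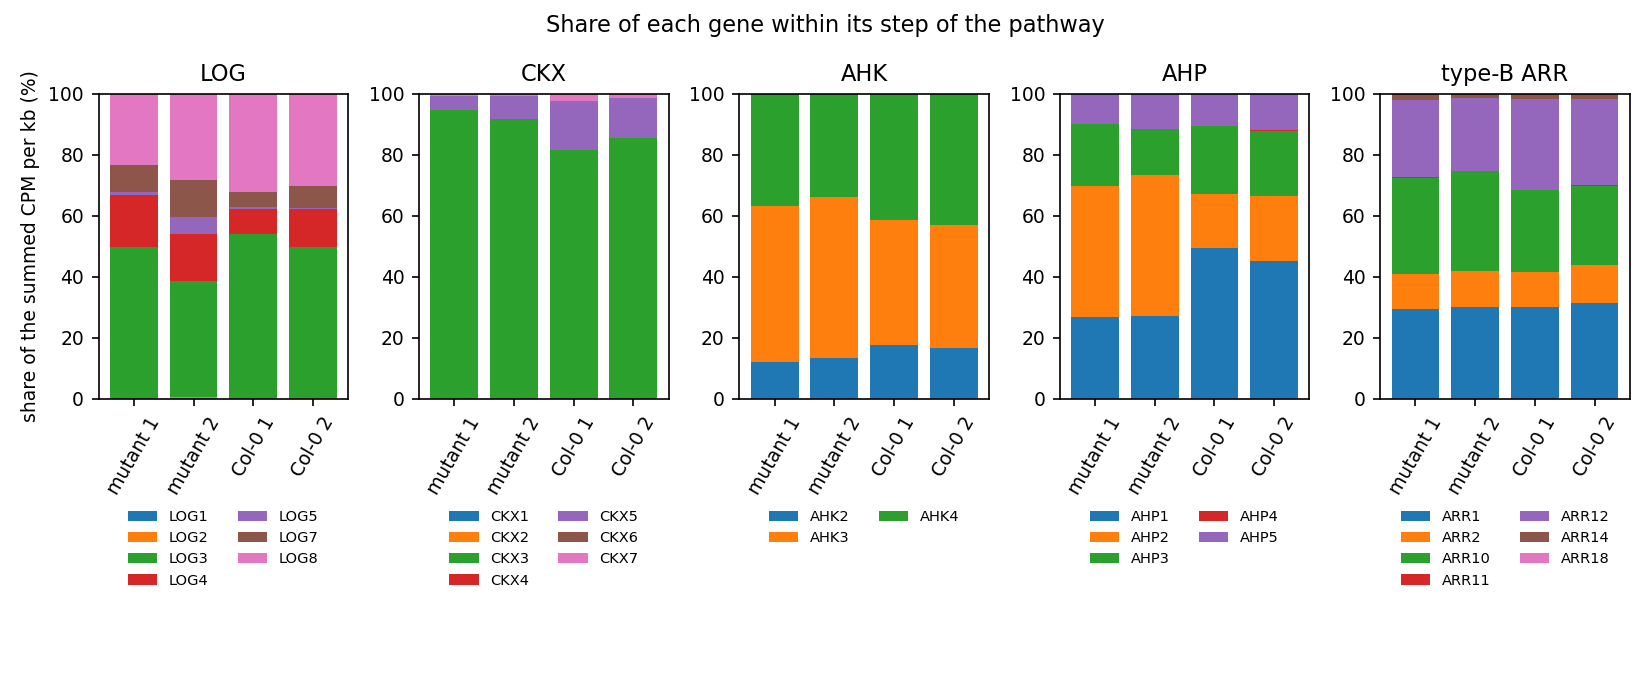
Share of each gene in the summed CPM per kilobase of its step, one bar per library, with the mutant libraries on the left and the Col-0 libraries on the right of each panel. AHP2 takes 42.9% and 46.2% of the AHP step in the mutant and 17.8% and 21.4% in Col-0, and CKX3 takes most of the CKX step in all libraries.

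AHP6 is an inhibitory relative of these proteins that lacks the histidine that takes up phosphate, and is known from protoxylem and its neighbouring cells in the root. AHP6, which is not one of the 37 genes, had 140 and 149 reads in the mutant and 4 and 2 in the wild type. It rose to 3.96 and 3.82 CPM in the mutant, against 0.132 and 0.0553 CPM in the wild type (log2 fold change 5.36, SE 0.48, adjusted p = 0.0172). The ratio of read totals was 43.1, with an exact 95% interval of 19.6 to 119 that covers counting error only. Per kilobase AHP6 stood at 3.94 in the mutant, where AHP2 stood at 40.1.

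The coding sequence around the phosphate-accepting site shows the difference between AHP6 and the AHP genes that changed or led the step, with the codon of the site in capitals. The stretches are spliced coding sequence, read from TAIR10.1 with RefSeq's annotation.
AHP2: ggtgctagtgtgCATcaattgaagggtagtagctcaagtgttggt
AHP1: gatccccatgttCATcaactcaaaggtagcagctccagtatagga
AHP6: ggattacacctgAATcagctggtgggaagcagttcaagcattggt
The codon was CAT, for histidine, in AHP1 to AHP5 and AAT, for asparagine, in AHP6. The AHP6 stretch lies at chr1:30134164-30134208 on the plus strand. Those of AHP2, at chr3:11264751-11264878, and AHP1, at chr3:7578850-7578998, lie on the minus strand and each span an intron.

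Summed markers of xylem vessels, root cap and endodermis were higher in both mutant libraries than in both wild-type libraries. The 7 xylem vessel markers summed to 24.7 and 16.6 CPM in the mutant and 12.0 and 10.5 CPM in the wild type. XCP1 alone passed the threshold in edgeR. DESeq2 called 4 of the 6 tested as raised, where it called 31.8% of all tested genes in either direction. IRX3 and IRX5 overlapped between genotypes (log2 fold changes 0.07 and 0.21). IRX3 had 6.99 and 6.13 CPM in the mutant and 6.64 and 5.84 CPM in the wild type. IRX5 had 5.26 and 3.51 CPM in the mutant and 3.78 and 3.82 CPM in the wild type. The vessel regulators VND6 and VND7 had 11 to 30 reads in mutant libraries and 0 to 2 in wild-type libraries. The 4 root cap markers summed to 91.4 and 106 CPM in the mutant and 23.3 and 22.1 CPM in the wild type. SMB rose and FEZ fell. SMB alone had 85.8 and 89.4 CPM in the mutant and 7.76 and 4.73 CPM in the wild type. BRN1 overlapped between genotypes, with 18 and 454 reads in the mutant and 7 and 215 in the wild type. BRN2, not tested, had 2 and 8 reads in the mutant and none in the wild type. The 4 endodermis markers summed to 22.5 and 22.6 CPM in the mutant and 4.04 and 2.74 CPM in the wild type. MYB36 rose and alone had 20.9 CPM in each mutant library, against 2.79 and 1.69 CPM in the wild type. ESB1 had higher mutant values but did not pass in edgeR (adjusted p = 0.24). CASP2 had 5 and 9 reads in the mutant and 14 and 2 in the wild type, and CASP1 had no read. The 3 phloem markers summed to 6.62 and 6.77 CPM in the mutant and 8.68 and 6.86 CPM in the wild type. The part of these cell types in the changes of AHP2, AHP6 and the other cytokinin genes was not tested.

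Of the type-B response regulators, ARR10 rose. ARR10 (AT4G31920) had 46.2 and 51.6 CPM in the mutant and 36.2 and 35.0 CPM in the wild type (log2 fold change 0.46, SE 0.09, adjusted p = 0.0479). The call lay close to the threshold and was lost with limma-voom (0.0548) and without mutant replicate 2 (0.0882). ARR1 (AT3G16857), ARR10 and ARR12 are the type-B factors that carry most of the cytokinin response of the root. ARR1 had 66.5 and 74.1 CPM in the mutant and 62.5 and 66.3 CPM in the wild type (0.13, SE 0.09, adjusted p = 0.374). ARR12 (AT2G25180) had 39.3 and 40.3 CPM in the mutant and 42.4 and 40.5 CPM in the wild type (-0.06, SE 0.08, adjusted p = 0.639).

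These 3 genes made up most type-B transcript in every library. ARR10 took 31.6% and 32.5% of the step per kilobase in the mutant and 26.9% and 25.7% in the wild type. ARR1 took 29.4% and 30.2% in the mutant and 30.0% and 31.5% in the wild type. ARR12 took 25.5% and 24.1% in the mutant and 29.8% and 28.2% in the wild type, so ARR10 was first of the 3 in the mutant and last in the wild type.

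The remaining type-B genes did not pass. ARR2 (AT4G16110) had 20.5 and 23.0 CPM in the mutant and 18.9 and 20.9 CPM in the wild type, with overlapping values. ARR14 (AT2G01760) had 53 to 76 reads per library. ARR11 (AT1G67710) had 10 and 2 reads in the mutant and 7 and 19 in the wild type, and ARR18 (AT5G58080) had 1 to 3 reads per library. Over its 7 genes the step summed to 175 and 191 CPM in the mutant and 162 and 165 CPM in the wild type, a ratio of 1.12.

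With 2 libraries against 2, an exact two-sided permutation test of a summed level cannot give a p below 0.333, so the sums are descriptions. The sums of LOG, AHK and IPT were lower and those of CKX, AHP and type-B ARR were higher in both mutant libraries than in both wild-type libraries. Without LOG3 the LOG sums overlapped between genotypes, at 50.4 and 69.1 CPM in the mutant and 67.3 and 76.7 CPM in the wild type. Their ratio was 0.829. LOG8, which stayed in that sum, had a mean of 35.3 CPM in the mutant and 55.1 CPM in the wild type. LOG3 had means of 38.7 and 59.1 CPM. Of the 6 tested LOG genes, 4 had positive fold changes. The lower LOG sum was therefore not that of LOG3 alone. Without AHK2 the receptor sums overlapped, with a ratio of 0.949 of the mutant over the wild type. AHK4, which stayed in that sum, had a mean of 62.8 CPM in the mutant and 83.0 CPM in the wild type. AHK2 had means of 22.0 CPM in the mutant and 32.8 CPM in the wild type, and AHK3 of 90.5 and 78.5 CPM. The lower receptor sum was therefore not that of AHK2 alone. Without ARR10 the type-B sums overlapped, at 129 and 139 CPM in the mutant and 126 and 130.1 CPM in the wild type. The IPT sum was 46.5 and 44.7 CPM in the mutant and 52.5 and 51.1 CPM in the wild type.

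Of 36 further genes of the pathway, 21 were tested, 3 rose and 1 fell, which is 19.0% of those tested, where 11.9% of all tested genes were called (6.06% raised, 5.81% lowered). Besides AHP6, KMD1 rose, which encodes an F-box protein that targets type-B response regulators for degradation. KMD1 had 67.8 and 84.7 CPM in the mutant and 39.8 and 45.2 CPM in the wild type (log2 fold change 0.84, SE 0.14, adjusted p = 0.0365). Its relative KMD2 had 252 and 242 CPM in the mutant and 216 and 187 CPM in the wild type (0.29, SE 0.10, adjusted p = 0.125). KMD3 and KMD4 had no read in any library. Annotated genes on the opposite strand cover all 1445 exonic bases of KMD3 and most of those of KMD4, so their counts are uncertain. In edgeR the KMD1 call was lost without mutant replicate 2, where the log2 fold change was 0.68. DESeq2 called KMD1 with all libraries (adjusted p = 6.85e-08). Its DESeq2 log2 fold change ran from 0.68 to 1 with any 1 library left out.

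UGT85A1, whose enzyme glucosylates zeatin at the side chain and so stores it, had 34.2 and 62.2 CPM in the mutant and 17.9 and 13.8 CPM in the wild type (log2 fold change 1.61, SE 0.33, adjusted p = 0.0499). It rose at the edge of the threshold, and the call was lost with RLE scaling in edgeR (0.0505) and with limma-voom (0.0679). It was also lost in edgeR without mutant replicate 2, where the log2 fold change was 1.12. DESeq2 called UGT85A1 with all libraries (adjusted p = 0.00242). Its DESeq2 log2 fold change ran from 1.12 to 1.98 with any 1 library left out. The N-glucosyltransferase genes UGT76C1 and UGT76C2 had log2 fold changes of 0.25 (SE 0.13) and -0.07 (SE 0.10). Neither passed.

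CRF2, a cytokinin response factor gene of the AP2/ERF family, fell. It had 95.3 and 83.1 CPM in the mutant and 173 and 147 CPM in the wild type (log2 fold change -0.84, SE 0.12, adjusted p = 0.0289). In edgeR the call was lost without mutant replicate 2, where the log2 fold change was -0.75. DESeq2 called CRF2 with all libraries (adjusted p = 3.06e-10). Its DESeq2 log2 fold change ran from -0.95 to -0.71 with any 1 library left out. None of the other 5 CRF genes passed in edgeR and 1 of them fell in DESeq2, with log2 fold changes from -0.47 for CRF1 to 0.10 for CRF5.

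The 2 transporter genes passed in neither edgeR nor DESeq2, and 0 had an unadjusted p below 0.05. ABCG14, which loads cytokinin for transport to the shoot, had a log2 fold change of -0.09 (SE 0.13), and PUP14, an importer at the plasma membrane, of 0.17 (SE 0.27). Of the 10 type-A response regulator genes, 7 were tested, of which edgeR called 0 and DESeq2 5. DESeq2 called 31.8% of all tested genes. All 7 tested type-A genes had higher values in both mutant libraries, as did 31.5% of all tested genes. Their log2 fold changes ran from 0.14 for ARR8 to 1.94 for ARR7. In edgeR 5 had an unadjusted p below 0.05, where 33.4% of all tested genes did. Of the 3 not tested, ARR15 had 0 and 1 reads in the mutant and 1 and 2 in the wild type. ARR16 had 2 and 4 reads in the mutant and none in the wild type, and ARR17 had no read. ARR6 had 7.27 and 7.72 CPM in the mutant and 1.81 and 3.24 CPM in the wild type (adjusted p = 0.0526). IPT4, IPT6, IPT8, LOG9, ARR13, ARR19, ARR20 and ARR21 had no read in any library. LOG6, not tested, had no read in the mutant and 1 and 6 in the wild type. CKI1, also not tested, had 2 and 0 reads in the mutant and none in the wild type.

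**Figure D4:**
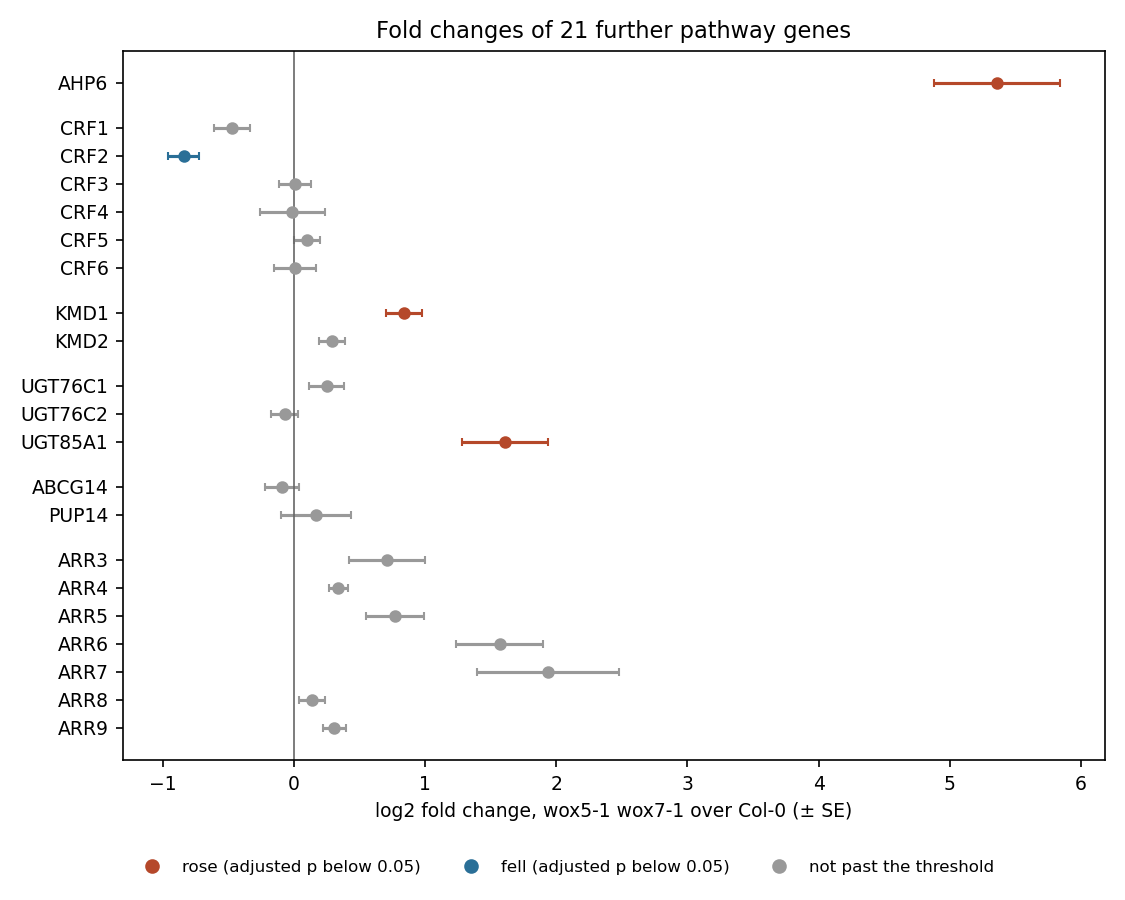
Log2 fold changes of 21 further genes of the cytokinin pathway, mutant over wild type, with SE bars. AHP6 (5.36), KMD1 (0.84) and UGT85A1 (1.61) rose and CRF2 (-0.84) fell, and all 7 type-A genes (ARR3 to ARR9) lie to the right of 0 without passing the threshold in edgeR.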

How the data were processed

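RNA-seq of 4 callus libraries was used. Values in the authors' deposited table are whole read counts by gene. Trim Galore 0.5.0, STAR 2.7.2b, TAIR10 and DESeq2 appear in the submitters' processing notes without roles. How reads were counted, with which annotation and by which strand, was not stated. Every deposited count is at least 10, and over 4897 genes of low deposited mean (above 10, at most 20) the variance was 0.643 (mutant) and 0.448 (wild type) times the mean, less than counting alone gives. A constant of 10 was therefore taken as added and was subtracted, an inference from the values. Whether smaller counts were instead lifted to 10 was not tested, so a count given as 0 rests on this reading. Intervals cover counting error only.

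Genes kept by filterByExpr (18716) were scaled by TMM and tested in R 4.3.3 with edgeR 4.0.16 (glmQLFit, glmQLFTest, two-sided, no covariate, Benjamini-Hochberg over all tested genes, threshold 0.05). The SE is the size of the log2 fold change over the square root of F. Per-kilobase levels use the exon union of RefSeq's TAIR10.1, which matched 32548 of 32833 identifiers and all 37 genes, and symbols came from it. Alternatives used DESeq2 1.42.0 and limma-voom 3.58.1. The fit was tested on simulated data. Every one of the 37 genes is accounted for, in each step with values for called genes, the 2 highest per kilobase and the smallest p. The rule for the 37 genes uses locus identifiers and no measured value, but the set and the lists were proposed with earlier results of these data known.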

Additional observations from a re-analysis of the deposited data

How the results depend on the processing

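Over all tested genes, edgeR called 2223. Counts as deposited, with nothing subtracted and another dispersion trend, gave 3921 (66.5% raised, against 51.1%), DESeq2 5946, DESeq2 with no filter 3936 and the replicate number as a block 4750. Leaving out 1 library gave 0 to 2493 genes by edgeR (the lowest without either wild-type library) and 1167 to 3015 by DESeq2 (1314 without wild-type replicate 1 and 1198 by edgeR without mutant replicate 2). Of the 37 cytokinin genes edgeR called 5 (3 raised, 2 lowered), DESeq2 10 (5 and 5), DESeq2 with no filter 8 (4 lowered) and the replicate block 7 (4 lowered), which added LOG8 (adjusted p = 0.019) and AHK4 (0.0407). Leaving out 1 library gave 0 to 6 called, 0 to 4 raised and 0 to 3 lowered. The DESeq2 runs with no filter or 3 libraries were chosen after seeing the data. The cause of these differences was not tested. Same-numbered libraries deviated together (correlation 0.555 over genes), but nothing in the labels says that the numbers pair them, and with 2 pairs this is only a hint. LOG4, not called, turned to -0.03 without wild type replicate 1 in edgeR and -0.02 in DESeq2, and was 0.72 without wild type replicate 2. With nothing subtracted, the log2 fold change of AHP6 was 3.48 (5.36 otherwise), and the log2 ratios of the summed levels moved to -0.10 for IPT (-0.19 otherwise), 0.57 for CKX (0.50), -0.07 for AHK (-0.15) and 0.24 for type-B ARR (0.16). Depth limits the 10 untested genes, which had at most 28 reads over all libraries.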
